A study of Mus musculus with 24 samples.

Results

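The genes examined here are 9 vascular genes in RNA of sorted Emx1-lineage cortical nuclei, 6 expressed by endothelial cells (Cldn5, Flt1, Kdr, Pecam1, Cdh5 and Tek) and 3 by mural cells (Pdgfrb, Rgs5 and Vtn). They were chosen by gene symbol, as genes of cell types outside the Emx1 lineage, and all 9 are listed among the 25135 genes of the expression tables at P1 and at P30 (postnatal days 1 and 30). Nuclei were sorted from mouse cortex by the SUN1-GFP reporter, a nuclear envelope protein tagged with GFP that is switched on by Cre recombinase. WT mice were Kdm6b wt/wt and carried SUN1-GFP, and Kdm6b-cKO littermates were Emx1-Cre; Kdm6b f/f with the same reporter, which all lines carried at the ROSA26 locus on a C57BL/6 background. The genotype given for WT names no Cre, and whether WT mice carried Emx1-Cre is not stated outright in the sources used here. Emx1-Cre acts in dorsal telencephalic progenitors and their progeny, so Kdm6b, a histone H3 lysine demethylase gene, was targeted in that lineage and not in the whole cortex. Each age had 6 WT and 6 Kdm6b-cKO libraries, 24 in all, numbered 0 to 5 within a group. Whether a library came from 1 animal or from pooled animals is not given in the sources used here, so p-values measure the spread between libraries, which may in part be technical.

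Endothelial cells line the blood vessels of the brain and are joined by tight and adherens junctions that form the blood-brain barrier. Their growth and survival depend on vascular endothelial growth factors and angiopoietins, which signal through receptor tyrosine kinases on the endothelial surface. Mural cells, the pericytes and smooth muscle cells, sit on the outside of the vessel and are recruited by platelet-derived growth factor from the endothelium. Neither cell type descends from dorsal telencephalic progenitors, whose progeny are glutamatergic neurons, astrocytes and oligodendrocytes.

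Levels are given in FPKM, fragment counts divided by transcript length in kilobases and by library size, which the authors also scaled between the libraries of an age. Since each age was normalized in its own table, genotypes were compared within an age only. The lowest values of a library differ by whole reads, and the height of such a step puts the effective depth at 821000 to 3910000 reads in WT and 192000 to 2850000 reads in Kdm6b-cKO at P1, and at 5130000 to 8320000 reads in WT and 1940000 to 8060000 reads in Kdm6b-cKO at P30. At P1, Kdm6b-cKO libraries 0 and 5 were the shallowest, with 343000 and 192000 reads. At P1, WT libraries 2 to 5 and Kdm6b-cKO library 5 had between 393 and 786 of 1113 olfactory receptor genes above 0, against at most 21 in each other P1 library. At P30, WT library 0 and Kdm6b-cKO libraries 0, 1 and 5 had under 1000 FPKM of 45S ribosomal RNA and the other 8 libraries had more. Kdm6b itself, counted over the whole gene, was 37.8 ± 11.3 FPKM in the WT libraries of P1 against 29.0 ± 9.67 FPKM in those of Kdm6b-cKO (SD, n = 6), and 21.6 ± 4.08 against 23.4 ± 4.36 FPKM at P30 (SD, n = 6), so these values do not separate the labelled genotypes. By a different measure, quantitative PCR of sorted nuclei, the study reports a large reduction of Kdm6b mRNA in Kdm6b-cKO.

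All 9 vascular genes were measured above 1 FPKM on average at P1, and 3 of them (Cldn5, Pdgfrb and Vtn) at P30. Their levels per length at P1 ran from Cldn5, at 89.5 ± 30.2 FPKM over the 12 libraries (SD, n = 12), through Rgs5 at 29.2 ± 18.8 FPKM and Vtn at 25.6 ± 12.4 FPKM, to a group of 6 genes between 2.24 FPKM (Cdh5) and 6.48 FPKM (Kdr). Cldn5 exceeded the gene next in order, Rgs5, in 12 of 12 libraries, and Vtn exceeded Kdr in 11 of 12. Rgs5 and Vtn did not differ beyond their spread, with Rgs5 the higher in 7 of 12 libraries. Kdr, Pdgfrb (6.33 FPKM), Pecam1 (5.47 FPKM) and Flt1 (5.27 FPKM) also lay within each other's spread, each exceeding the next in 7 of 12 libraries. At P30 the order was Vtn at 4.18 ± 4.57 FPKM, Pdgfrb at 3.65 ± 1.40 FPKM and Cldn5 at 2.71 ± 2.47 FPKM (SD, n = 12), and the other 6 genes averaged between 0.117 FPKM (Kdr) and 0.492 FPKM (Tek). Among the first 3 genes no neighbour differed beyond its spread, since Vtn exceeded Pdgfrb in 6 of 12 libraries and Pdgfrb exceeded Cldn5 in 7 of 12. In bulk RNA, fewer nuclei of a cell type and less RNA per nucleus cannot be told apart.

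**Figure D1:**
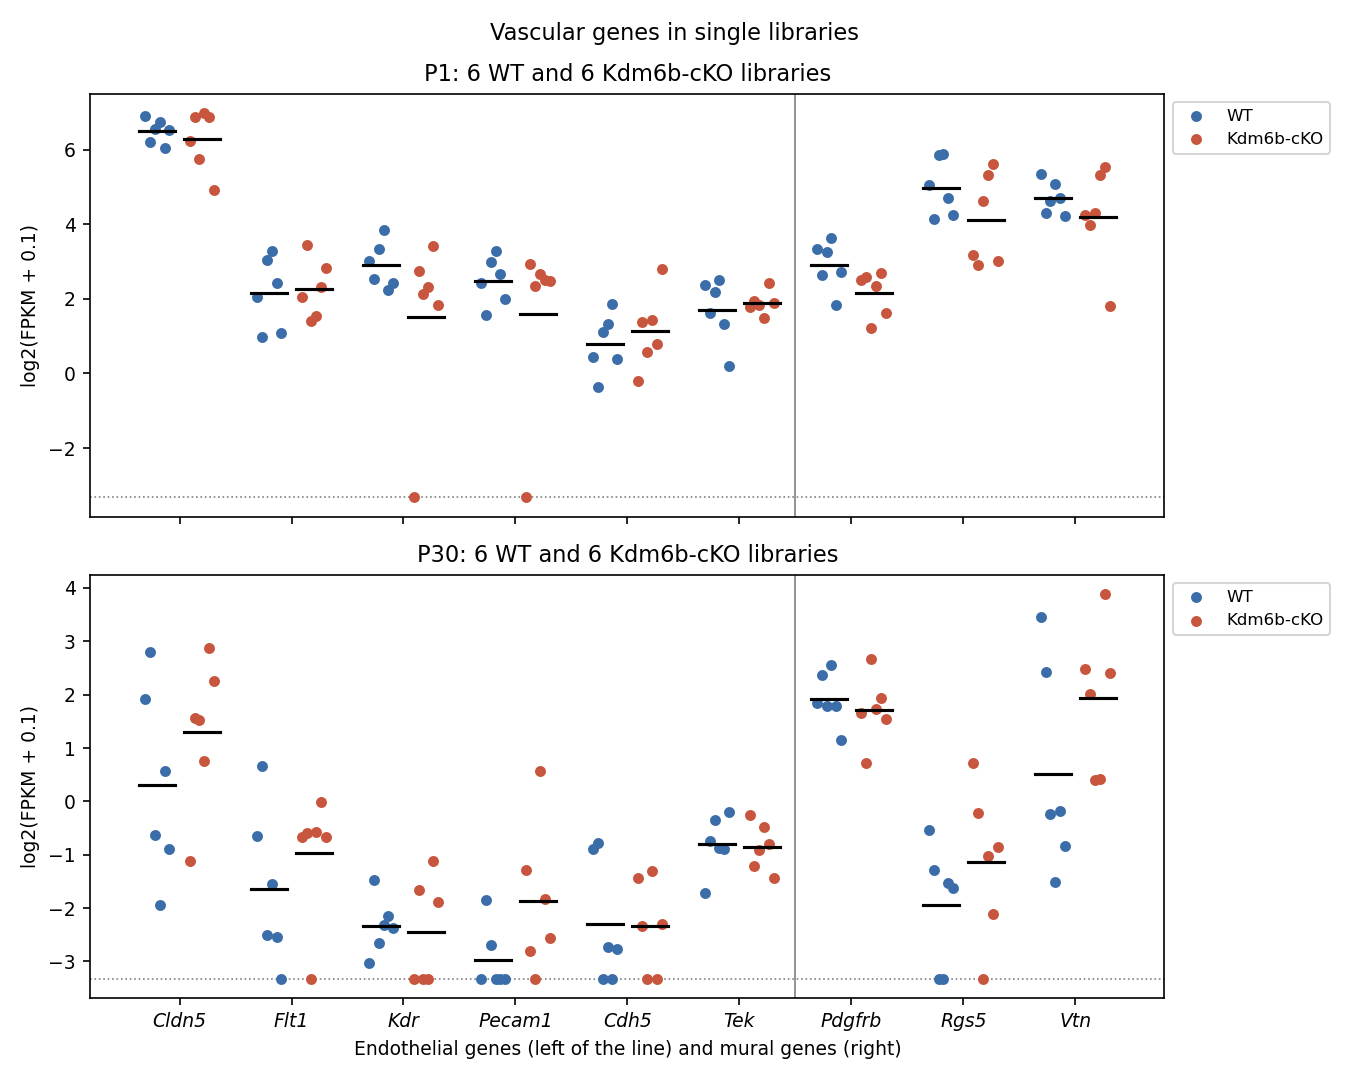
Level of each vascular gene in every library as log2(FPKM + 0.1), at P1 (top) and P30 (bottom), in WT (blue) and Kdm6b-cKO (red) libraries, with black bars at the mean of 6 libraries and a dotted line at the value of a gene listed at 0 FPKM. Points are in order of library number within each group, and the genotypes overlap in every gene at both ages.

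None of the 9 genes was called different between the genotypes at either age. With limma on log2(FPKM + 0.1), 0 of 9 were called at P1 (adjusted p under 0.05 with more than a 2-fold change), where 0% of 16250 genes tested were called. At P30, 0 of the 3 genes tested were called, where 0.278% of 13289 genes were called, 37 genes in all. That count fell to 2 without WT library 2, 3 or 5. At an unadjusted limma p under 0.05, 0 of 9 members passed at P1 and 0 of 3 at P30, beside 14.5% and 12.7% of all genes tested. The exact permutation test of single genes (two-sided, 924 arrangements), which needs no minimum level, gave 0 of 9 genes a p under 0.05 at either age, beside 11.5% of all genes with a value above 0 at P1 and 10.5% at P30. In no vascular gene did the groups of 6 libraries lie fully apart, as they did in 1.03% of genes at P1 and 1.41% at P30. Differences below are Kdm6b-cKO minus WT in mean log2(FPKM + 0.1), adjusted p-values are those of limma after Benjamini-Hochberg correction across every gene of the fit, and the smallest p that the permutation test can give is 0.00216.

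Cldn5 encodes a claudin of endothelial tight junctions and is central to the blood-brain barrier. It lies on the plus strand of chromosome 16 of mm9, at chr16:18776940-18778353, as 1 transcript with 1 exon. At P1, Cldn5 had 65.7 FPKM in the lowest WT library, a median of 93.3 and 119.8 in the highest, against 30.2, 96.2 and 127.1 FPKM in Kdm6b-cKO. The genotypes overlapped widely and the lowest value belonged to Kdm6b-cKO library 5, which is also the shallowest library. The log2 difference was -0.22 (SE 0.33, 95% interval -0.93 to 0.49, adjusted p = 0.772), so a change of more than 2-fold in either direction lies outside the interval. Steps of 1 read placed these values on whole reads, 1325 reads over the 6 WT libraries and 1166 over the 6 Kdm6b-cKO libraries, with 7 in Kdm6b-cKO library 5.

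At P30, Cldn5 had 0.161 FPKM in the lowest WT library, a median of 0.967 and 6.85 in the highest, against 0.361, 2.83 and 7.23 FPKM in Kdm6b-cKO. WT libraries 0 and 1 had 3.67 and 6.85 FPKM and the other 4 WT libraries at most 1.39, while 5 of 6 Kdm6b-cKO libraries had at least 1.58. These values stood for 107 reads in WT, with 35 in library 0 and 50 in library 1, and for 91 reads in Kdm6b-cKO. The log2 difference was 1.01 (SE 0.83, 95% interval -0.78 to 2.79, adjusted p = 0.663; exact permutation test, p = 0.305). It was 1.74 among the 8 libraries with the higher 45S level (5 WT and 3 Kdm6b-cKO) and -1.02 among the other 4 (1 WT and 3 Kdm6b-cKO).

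Flt1 and Kdr are the receptors of vascular endothelial growth factors, Kdr the main signalling receptor and Flt1 largely a decoy for its ligand. Flt1 lies on the minus strand at chr5:148373180-148537587 and Kdr on the minus strand at chr5:76328852-76374483. At P1, Flt1 spanned 1.89 to 9.66 FPKM in WT libraries (median 4.68), against 2.58 to 10.8 FPKM in Kdm6b-cKO libraries (median 4.48). The 2 ranges nearly coincide, with a log2 difference of 0.12 (SE 0.50, 95% interval -0.95 to 1.20, adjusted p = 0.924). Kdr at P1 spanned 4.65 to 14.2 FPKM in WT libraries (median 6.87), against 0 to 10.6 FPKM in Kdm6b-cKO libraries (median 4.60). It was listed at 0 in Kdm6b-cKO library 0 and had at least 3.46 FPKM in every other P1 library. Its log2 difference of -1.38 (SE 0.88, 95% interval -3.26 to 0.51, adjusted p = 0.491) was the largest of the 9 in size at P1, and without Kdm6b-cKO library 0 it was -0.41.

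At P30 both receptors were near the limit of detection. Flt1 spanned 0 to 1.48 FPKM in WT libraries (median 0.158), against 0 to 0.885 FPKM in Kdm6b-cKO libraries (median 0.548), with a log2 difference of 0.68 (exact permutation test, p = 0.381). WT libraries 0 and 1 had 0.540 and 1.48 FPKM and the other WT libraries at most 0.241, while 5 of 6 Kdm6b-cKO libraries had at least 0.528. Kdr spanned 0.0222 to 0.260 FPKM in WT libraries, against 0 to 0.360 FPKM in Kdm6b-cKO libraries, a log2 difference of -0.11 (exact permutation test, p = 0.827). It rested on 24 reads over the 6 WT libraries and 19 over the 6 Kdm6b-cKO libraries, of which 3 had none.

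Pecam1 and Cdh5 encode the adhesion molecules of endothelial cell contacts, Cdh5 being the cadherin of their adherens junctions. Pecam1 lies on the minus strand at chr11:106515531-106611942 and contains a small nucleolar RNA gene on the opposite strand, and Cdh5 lies on the plus strand at chr8:106625525-106668402. Pecam1 at P1 spanned 2.89 to 9.65 FPKM in WT libraries (median 5.76), against 0 to 7.61 FPKM in Kdm6b-cKO libraries (median 5.55). As for Kdr, the value of 0 was in Kdm6b-cKO library 0, and the other 5 Kdm6b-cKO libraries had at least 4.97 FPKM. The log2 difference was -0.88 (SE 0.89, 95% interval -2.77 to 1.01, adjusted p = 0.657) and turned to 0.11 without that library. Cdh5 at P1 spanned 0.673 to 3.52 FPKM in WT libraries (median 1.66), against 0.768 to 6.85 FPKM in Kdm6b-cKO libraries (median 2.08), a log2 difference of 0.34 (SE 0.59, 95% interval -0.92 to 1.60, adjusted p = 0.803). The highest Cdh5 value, in the shallow Kdm6b-cKO library 5, stood for 5 reads, and the group totals were 68 reads in WT and 74 in Kdm6b-cKO. Quantile normalization moved the Cdh5 difference to 1.14 and the fit with the olfactory receptor split as a term to 1.07, with no call in either.

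At P30 Pecam1 was listed at 0 in 4 of 6 WT libraries and 1 of 6 Kdm6b-cKO libraries. Its highest WT value was 0.176 FPKM (library 1) and its highest Kdm6b-cKO value 1.38 FPKM (library 3), with the other Kdm6b-cKO libraries at 0.309 FPKM or less. The log2 difference of 1.10 did not pass (exact permutation test, p = 0.0996), and without Kdm6b-cKO library 2 it was 1.39 (exact permutation test, p = 0.0281). Cdh5 at P30 spanned 0 to 0.482 FPKM in WT libraries, against 0 to 0.303 FPKM in Kdm6b-cKO libraries, a log2 difference of -0.04 (exact permutation test, p = 0.918). The WT libraries held 26 reads of Cdh5, of which 13 were in library 0 and 11 in library 1, and 2 libraries of each genotype held none.

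Tek encodes the angiopoietin receptor of endothelial cells and lies on the plus strand at chr4:94405980-94541667. At P1 it spanned 1.04 to 5.55 FPKM in WT libraries (median 3.72), against 2.73 to 5.26 FPKM in Kdm6b-cKO libraries (median 3.54). The Kdm6b-cKO libraries lay inside the WT range, and the log2 difference was 0.19 (SE 0.45, 95% interval -0.76 to 1.14, adjusted p = 0.859). At P30 Tek was above 0 in all 12 libraries, with 0.204 to 0.767 FPKM in WT (median 0.471) and 0.269 to 0.743 FPKM in Kdm6b-cKO (median 0.452), a log2 difference of -0.06 (exact permutation test, p = 0.842). WT libraries 0 and 1, the highest WT libraries for Cldn5, Flt1 and Cdh5 at P30, had 0.204 and 0.495 FPKM of Tek, and WT library 5 had the highest Tek value.

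Pdgfrb encodes the receptor through which pericytes respond to platelet-derived growth factor, and lies on the plus strand at chr18:61204804-61244715. At P1 it spanned 3.49 to 12.3 FPKM in WT libraries (median 7.96), against 2.24 to 6.34 FPKM in Kdm6b-cKO libraries (median 5.29). Of the 6 WT libraries, 4 exceeded 6.34 FPKM, the highest Kdm6b-cKO value, and WT libraries 1 and 4 lay within the Kdm6b-cKO range. The log2 difference was -0.74 (SE 0.40, 95% interval -1.58 to 0.11, adjusted p = 0.407), and the exact permutation test gave p = 0.0584. That p fell to 0.00866 without WT library 4 and to 0.0476 without Kdm6b-cKO library 4, so the unadjusted call depends on single libraries. At P30 Pdgfrb spanned 2.12 to 5.79 FPKM in WT libraries (median 3.41), against 1.54 to 6.25 FPKM in Kdm6b-cKO libraries (median 3.15). Here the groups coincided, with a log2 difference of -0.20 (SE 0.33, 95% interval -0.90 to 0.50, adjusted p = 0.844), whose interval leaves out a 2-fold change in either direction.

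Rgs5, a regulator of G protein signalling abundant in pericytes, lies on the plus strand at chr1:171585632-171625944. At P1 it spanned 17.6 to 59.3 FPKM in WT libraries (median 29.6), against 7.36 to 49.4 FPKM in Kdm6b-cKO libraries (median 16.7). Kdm6b-cKO libraries 0, 1 and 5, with at most 8.95 FPKM, were below all WT libraries, and libraries 2, 3 and 4 lay among them. Those 3 lower libraries are also the 3 shallowest of their group at P1, with 343000, 834000 and 192000 reads. WT library 4, with 821000 reads, had 25.8 FPKM of Rgs5, and the part of depth was not tested. The log2 difference was -0.88 (SE 0.51, 95% interval -1.97 to 0.22, adjusted p = 0.447), and -0.37 among the libraries of over 500000 reads, an alternative chosen after seeing the depths. At P30 Rgs5 spanned 0 to 0.587 FPKM in WT libraries, against 0 to 1.55 FPKM in Kdm6b-cKO libraries, a log2 difference of 0.80 (exact permutation test, p = 0.303).

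Vtn encodes vitronectin, an extracellular matrix glycoprotein that pericytes secrete in the brain, and lies on the plus strand at chr11:78312593-78315826. At P1 it spanned 18.4 to 40.8 FPKM in WT libraries (median 25.4), against 3.39 to 46.3 FPKM in Kdm6b-cKO libraries (median 19.3). The Kdm6b-cKO range enclosed the WT range, its lowest value being 1 read in Kdm6b-cKO library 5. The log2 difference of -0.52 (SE 0.50, 95% interval -1.58 to 0.54, adjusted p = 0.637) was -0.04 without that library. At P30 Vtn spanned 0.253 to 10.9 FPKM in WT libraries (median 0.766), against 1.22 to 14.7 FPKM in Kdm6b-cKO libraries (median 4.56). WT libraries 0 and 1 had 10.9 and 5.27 FPKM and the other 4 at most 0.782, below each Kdm6b-cKO library. In reads, WT library 0 held 132 and library 1 held 49 of the 204 WT reads of Vtn, while the 202 Kdm6b-cKO reads were spread as 5 to 58 per library.

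The Vtn difference at P30 was the largest of the 9, at 1.41 on the log2 scale (SE 0.86, 95% interval -0.43 to 3.26, adjusted p = 0.526; exact permutation test, p = 0.169). It was 1.64 among the libraries with the higher 45S level and -1.16 among those with the lower level. With weights that limma estimated for each library it reached 2.18 (adjusted p = 0.0292) and was called, the only limma call of a vascular gene in any alternative, in a fit that called 329 genes lower and 201 higher. Without WT library 0 the exact permutation test gave p = 0.0476. The limma adjusted p ranged from 0.0292 to 0.719 over all alternatives.

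The differences were also taken within the technical splits, as values with no test, since 1 side of each split holds a single library of a genotype. Among the 7 P1 libraries without olfactory receptor signal (2 WT and 5 Kdm6b-cKO) the log2 differences were -0.71 for Pdgfrb, -0.27 for Rgs5, -0.16 for Vtn, -0.01 for Cldn5, -1.32 for Kdr, -0.57 for Pecam1, 0.64 for Flt1, 0.76 for Cdh5 and -0.10 for Tek. The 5 libraries with that signal include 1 Kdm6b-cKO library, the shallow library 5, and gave -1.24 for Pdgfrb, -2.16 for Rgs5, -2.86 for Vtn, -1.54 for Cldn5, -1.13 for Kdr, -0.24 for Pecam1, 0.37 for Flt1, 1.63 for Cdh5 and 0.32 for Tek. Tek was the gene whose sign differed between these sides at P1. At P30 the libraries with the higher 45S level gave 0.55 for Flt1, -0.39 for Kdr, 1.38 for Pecam1, -0.07 for Cdh5, -0.12 for Tek, 0.19 for Pdgfrb and 0.07 for Rgs5. The 4 libraries with the lower 45S level, 1 of them WT, gave 0.0023 for Flt1, 0.74 for Kdr, 1.10 for Pecam1, -1.13 for Cdh5, 0.75 for Tek, -0.54 for Pdgfrb and 0.43 for Rgs5. Cldn5, Kdr, Tek, Pdgfrb and Vtn differed in sign between the sides at P30.

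**Figure D2:**
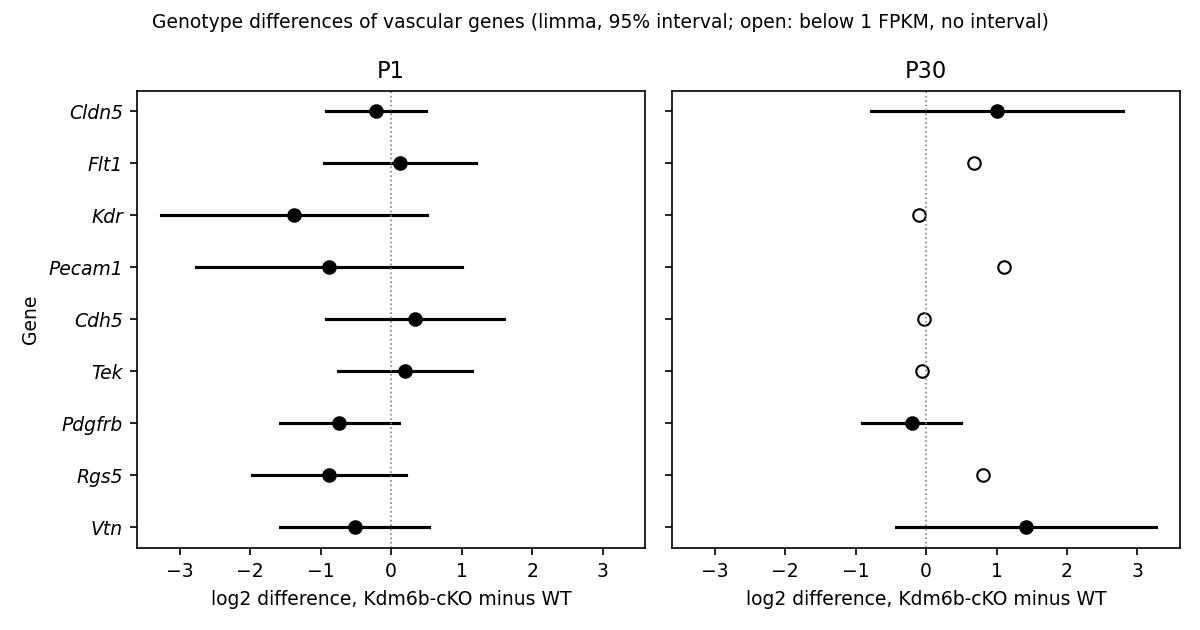
Difference in mean log2(FPKM + 0.1), Kdm6b-cKO minus WT, for each vascular gene at P1 (left) and P30 (right). Filled points are limma estimates with 95% intervals, open points are genes with a mean under 1 FPKM, given without an interval, and every interval includes 0.

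Whether the genotype difference itself changed with age could be tested for the 3 genes above 1 FPKM at both ages, and 0 of 3 were called, beside 0.00791% of 12644 genes. The difference at P30 less that at P1 was 1.22 for Cldn5 (SE 0.92, adjusted p = 0.583), 0.53 for Pdgfrb (SE 0.50, adjusted p = 0.677) and 1.93 for Vtn (SE 1.04, adjusted p = 0.437). The 95% intervals ran from -0.67 to 3.12 for Cldn5 and from -0.21 to 4.08 for Vtn, so differences of more than 2-fold between the ages are within them.

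Between the ages, the vascular genes had higher FPKM at P1 than at P30, set side by side without a test because the tables were normalized separately. The ratio of mean FPKM at P1 to P30 was 33.0 for Cldn5, 55.3 for Kdr, 29.7 for Pecam1, 15.0 for Cdh5, 11.5 for Flt1 and 7.39 for Tek. Among mural genes it was 75.3 for Rgs5, 6.12 for Vtn and 1.73 for Pdgfrb. For Cldn5, Flt1, Cdh5, Tek and Rgs5 each of the 12 P1 libraries lay above the highest P30 library, and for Kdr, Pecam1 and Vtn 11 of 12 did. Pdgfrb stood apart, with 5 of 12 P1 libraries above its highest P30 value. The median ratio of the 9 genes was 15.0, against 1.62 over the 16250 genes with at least 1 FPKM at P1, and 6.8% of those with a ratio reached 15.0. With no minimum level, the median over the 23376 genes above 0 at either age was 2.46, and 23.6% of them reached 15.0, counting the 3521 genes at 0 at P30.

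**Figure D3:**
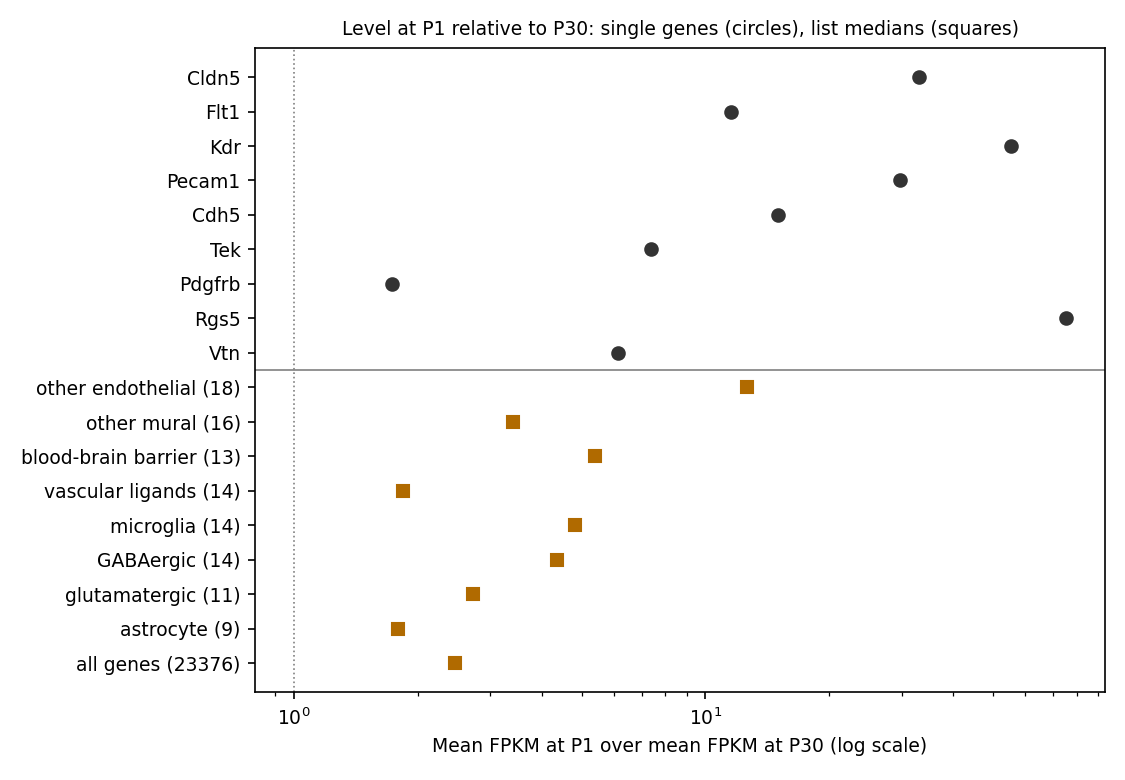
Mean FPKM at P1 divided by mean FPKM at P30, on a log axis, for each vascular gene (circles). Squares are medians over every listed gene of the lists shown and over all genes above 0 at either age (number of genes in brackets). Not shown are the red blood cell, perivascular fibroblast and choroid plexus lists, with median ratios of 87.3, 7.87 and 5.54. The 2 tables were normalized separately, and the ratios run from 1.73 for Pdgfrb to 75.3 for Rgs5 against a median of 2.46 over all genes.

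Most further vascular markers, listed apart from the 9, also had higher FPKM at P1 than at P30, as did 72.9% of all genes above 0 at either age. Of 18 other endothelial markers, 17 had the higher mean at P1, with a median ratio of 12.6 over the 18, and 17 averaged at least 1 FPKM at P1 and 5 at P30. At P1 the highest were Egfl7 (35.2 FPKM), which encodes a secreted factor of endothelial cells, and Ramp2 (31.5 FPKM), a partner of the adrenomedullin receptor. At P30 the highest were Egfl7 (11.7 FPKM) and Plvap (6.78 FPKM), the diaphragm protein of fenestrated endothelium, whose P1 mean was 5.55 FPKM. Erg, an endothelial transcription factor gene, averaged 0.550 FPKM at P1 and 0.0690 at P30. In the genotype comparison 0 of 17 were called at P1 (6 positive and 11 negative differences, median -0.20), beside 0% of all genes tested. At P30, 0 of 5 were called (3 positive and 2 negative, median 0.09), beside 0.278%. The medians over all genes were -0.25 at P1 and -0.05 at P30.

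Of 16 other mural markers, 13 had the higher mean at P1, with a median ratio of 3.41 over the 16, and 13 averaged at least 1 FPKM at P1 and 7 at P30. The highest at P1 were Higd1b (12.8 FPKM) and Ndufa4l2 (8.60 FPKM), both pericyte-enriched, and at P30 Mcam (4.88 FPKM), a cell adhesion molecule, and Notch3 (3.41 FPKM), a receptor of vascular smooth muscle. The 3 genes without a higher mean at P1 were Mcam (4.87 FPKM at P1), Notch3 (1.94 FPKM at P1) and Tagln, of smooth muscle, with 2.46 FPKM at P1 and 2.57 at P30. None of the 13 was called at P1 (9 negative and 4 positive differences, median -0.37), beside 0% of all genes tested. None of 7 was called at P30 (3 negative and 4 positive, median 0.27), beside 0.278%. Mcam at P30 came nearest, with a log2 difference of -1.30 (SE 0.26, adjusted p = 0.0536), opposite in sign to Vtn.

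Genes of the blood-brain barrier and the ligands of the vascular receptors had median ratios between the ages of 5.39 (13 genes) and 1.84 (14 genes), with 12 and 8 genes higher at P1. Of 13 barrier genes, 12 averaged at least 1 FPKM at P1 and 7 at P30, led at both ages by the transporter genes Slc7a5 (24.1 and 4.44 FPKM), for large amino acids, and Slc2a1 (23.7 and 5.21 FPKM), for glucose. Of 15 ligands and co-receptors, 14 were listed under their symbols, and 14 averaged at least 1 FPKM at P1 and 12 at P30. Vegfb, a growth factor gene that also other cells express, had 20.7 FPKM at P1 and 25.4 at P30, Nrp1, a co-receptor also present in neurons, led at P1 with 54.8 FPKM, and Vegfa, the ligand of Kdr, led at P30 with 32.4 FPKM. At P1, 0 of 12 barrier genes and 0 of 14 ligands were called, beside 0% of all genes tested. At P30, 0 of 7 and 0 of 12 were called, beside 0.278%.

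Markers of other cell types varied over the same libraries, and their part in these results was not tested. Summed over the 9 vascular genes, WT libraries of P1 held 131.2 to 253.3 FPKM and Kdm6b-cKO libraries 71.0 to 248.1 FPKM, which is 18.9% to 43.8% and 10.5% to 31.7% of the summed level of 11 glutamatergic neuron markers in the same library. The glutamatergic sum was itself 500.2 to 793.1 FPKM in WT and 676.9 to 1099 FPKM in Kdm6b-cKO at P1. At P30 the vascular sum was 4.15 to 20.4 FPKM in WT and 9.31 to 27.7 FPKM in Kdm6b-cKO. That was 1.11% to 7.88% and 1.97% to 6.58% of the glutamatergic sum. The highest WT vascular sums at P30 were in libraries 0 and 1, and there the 14 GABAergic neuron markers summed to 550.5 and 371.8 FPKM. Those markers summed to 47.1 to 119.7 FPKM in the other 4 WT libraries and 211.2 to 391.3 FPKM in Kdm6b-cKO. GABAergic neurons arise in the ventral telencephalon, outside the sorted lineage, and their highest marker, Sst, averaged 639.1 FPKM at P1 and 144.9 FPKM at P30. In the genotype comparison at P30 all 11 tested GABAergic markers had a positive difference (median 1.54, 0 called). Of these 11, 6 had an unadjusted limma p under 0.05, beside 12.7% of all genes tested.

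Among the 14 microglia markers, 14 averaged at least 1 FPKM at P1 and 9 at P30, and their sum at P30 was 14.8 to 59.95 FPKM in WT (highest in library 0) and 23.4 to 68.8 FPKM in Kdm6b-cKO (highest in library 2). The leading genes at P1 were the complement genes C1qc (27.0 FPKM) and C1qb (25.6 FPKM), and Aif1 averaged 7.11 FPKM at P30. Of the haemoglobin genes of red blood cells, Hba-a1 (891.4 FPKM) and Hbb-b1 (331.3 FPKM) exceeded each vascular gene on average at P1, Hba-a2 (46.3 FPKM) was below Cldn5, and Hba-a1 averaged 4.65 FPKM at P30. Of 7 red blood cell genes 6 were listed under their symbols, and their sum was 565.7 to 1169 FPKM in WT and 863.7 to 2018 FPKM in Kdm6b-cKO at P1. Perivascular fibroblast markers were led by Dcn (18.7 FPKM) and Col1a2 (16.9 FPKM) at P1 and by the collagen genes Col6a1 (78.4 FPKM) and Col6a2 (21.2 FPKM) at P30. Of these 8 markers, 6 had the higher mean at P1, with a median ratio between the ages of 7.87. Dcn and Col1a2 averaged 1.78 and 1.25 FPKM at P30, and Col6a1 and Col6a2 averaged 9.83 and 4.99 FPKM at P1. Choroid plexus and ependymal markers were led by Ttr, at 455.3 FPKM at P1 and 9.31 at P30, and next by Folr1 (5.43 FPKM) and Ccdc153 (1.09 FPKM). Of the microglia, fibroblast, red blood cell, choroid plexus and GABAergic lists, 0 genes were called at either age. Over all genes tested, 0% were called at P1 and 0.278% at P30. Of the microglia markers, 11 of 14 had a negative difference at P1 (median -0.64) and 7 of 9 a positive one at P30 (median 1.30). At an unadjusted limma p under 0.05, 2 were lower and 1 higher at P1, beside 14.5% of all genes tested. At P30, 0 were lower and 2 higher, beside 12.7%.

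Markers of the sorted lineage were present at both ages. All 11 glutamatergic and all 9 astrocyte markers averaged at least 1 FPKM at P1 and at P30, with Neurod6 (407.2 FPKM) highest at P1 and Slc17a7 (154.4 FPKM) and Neurod2 (62.1 FPKM) at P30 among the former, and Aldoc (82.9 FPKM) and Slc1a3 (75.1 FPKM) at P1 and Slc1a2 (34.4 FPKM) and Aldoc (25.7 FPKM) at P30 among the latter. Emx1 averaged 17.7 FPKM at P1 and 3.38 FPKM at P30. Slc17a7, the main vesicular glutamate transporter gene of cortical neurons, averaged 6.36 FPKM at P1, less than Cldn5, Rgs5 and Vtn, and 154.4 FPKM at P30, more than each vascular gene. At P1 Slc17a7 averaged 9.6 ± 2.8 FPKM in WT against 3.1 ± 2.0 FPKM in Kdm6b-cKO (SD, n = 6). Its log2 difference there was -1.76 (SE 0.43, adjusted p = 0.180). None of the lineage markers was called at either age, beside 0% of all genes tested at P1 and 0.278% at P30. At P1, 2 of 11 glutamatergic markers were lower and 1 higher at an unadjusted limma p under 0.05. Of 9 astrocyte markers, 4 were lower and 0 higher, beside 14.5% of all genes tested. At P30, 1 marker of each list was lower and 0 higher, beside 12.7%.

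**Figure D4:**
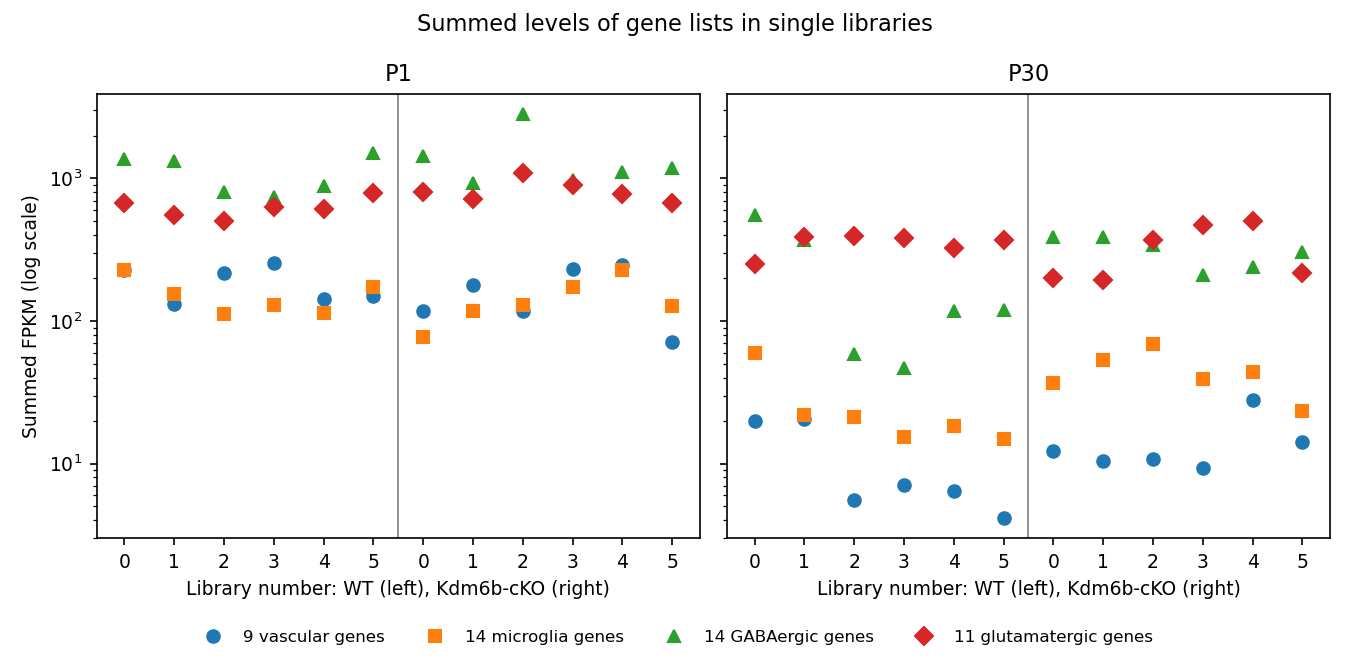
Summed FPKM, on a log axis, of the 9 vascular genes and of 14 microglia, 14 GABAergic and 11 glutamatergic markers in each library at P1 (left) and P30 (right), with WT libraries left of the line and Kdm6b-cKO libraries right of it. At P30 the vascular sum was 4.15 to 20.4 FPKM in WT, highest in libraries 0 and 1, and 9.31 to 27.7 FPKM in Kdm6b-cKO.

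The genes whose levels were most like the mean log2 level of the 6 endothelial genes differed between the ages. At P1, among 16241 genes compared over 12 libraries, the highest Pearson correlations were those of Abcc9 (0.949), F13a1 (0.949), Lpar4 (0.948), Fli1 (0.934), Pcdhgb4 (0.932), Zfp748 (0.929), Stom (0.928) and Mcf2 (0.920). Abcc9 is a pericyte gene, Fli1 encodes a transcription factor of endothelial and blood cells, and F13a1 a clotting factor subunit made by macrophages. At P30, among 13286 genes, they were Mhrt (0.901), Renbp (0.884), Id4 (0.877), Ppp1r7 (0.872), Wnt7a (0.853), Lrp8 (0.850), Spef2 (0.837) and Intu (0.833), of which 1, Wnt7a, was on a vascular list. The median correlation of the other endothelial markers was 0.41 at P1 (17 genes) and -0.40 at P30 (5 genes), beside 0.15 and -0.02 over all genes. The medians of other lists included 0.41 for 14 microglia, 0.37 for 13 other mural and 0.31 for 13 GABAergic markers at P1, and 0.61 for 11 GABAergic and 0.36 for 9 microglia markers at P30. At P1 the endothelial mean log2 level was 0.54 in the shallow Kdm6b-cKO library 0, with 2 of 6 genes at 0. In the other P1 libraries it was 2.09 to 3.50, so the P1 correlations lean on that library. The 12 points share the depth and quality of their libraries, and at P30 the mean includes 5 genes that averaged under 1 FPKM, so these correlations are given as a description.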

How the data were processed

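Nuclear RNA of sorted Emx1-lineage nuclei was sequenced on AVITI or NovaSeq instruments. Per the labels and the methods, the authors aligned reads to mm9 with HISAT2 and ran Cuffdiff, and deposited FPKM values for each library in a table per age, with a further table per age of their own comparison (group values, fold changes, test statistics, p and q values), which was not used here. Columns of the FPKM tables name a group and a library number, and 0 columns were left unmapped. Positions are from GENCODE M1 on mm9. Lists of markers cover other endothelial, barrier, other mural, vascular ligand, fibroblast, red blood cell, microglia, GABAergic, glutamatergic, astrocyte and choroid plexus genes. The 9 genes, the lists and the tests were chosen with earlier results of these data known.

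Within each age, limma 3.58.1 in R 4.3.3 (two-sided, with an intensity trend) was fitted to log2(FPKM + 0.1) of the genes that averaged 1 FPKM or more across 12 libraries. A fold change on this scale understates that of low genes. Genes were called at more than a 2-fold change with an adjusted p under 0.05, the cut-offs of the study's methods. For single genes, means were compared over all 924 arrangements of 12 libraries into equal groups (exact permutation test, two-sided). Other steps used Python 3.11.15, numpy 2.4.6, pandas 2.3.3 and matplotlib 3.10.9. Scripts were tested on data made with known changes. Of 200 genes given a log2 change of 1.5, limma recovered 22.5% at P1 and 57.5% at P30.

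Named from each list were the 2 genes of highest mean FPKM at an age and any gene called, with the 8 genes most alike to the endothelial mean. Some genes that this rule names are not reported here. Erg, Mcam, Tagln and Hba-a2 were added after their values were seen. Reads were recovered from FPKM steps where the values of a gene lay on whole steps in every library, within 0.01 of a whole read. That held for Cldn5, Cdh5 and Vtn at both ages and Kdr at P30, though Vtn has 4 annotated transcripts and Kdr 3. Effective depth assumes fragments of 200 bases, and reads cover counting error only. A gene listed at 0 may be a failed estimate. Alternatives were other pseudocounts (1 and 0.01), filters (none and 5 FPKM), scalings (median of ratios, quantiles), variance models, library weights, a replicate block, the olfactory receptor and 45S splits, and leaving out each library. Depth limits of 500000 reads at P1 and 3000000 at P30 were added after seeing the data.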

Additional observations from a re-analysis of the deposited data

Results flagged for a closer look

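Of 36 groups of 6 libraries examined (9 genes, 2 genotypes, 2 ages), 3 held a library standing apart by Dixon's criterion, where chance gives about 1 in 20 groups. Kdr at P1 was listed at 0 FPKM in Kdm6b-cKO library 0, with the nearest other library of the group at 3.46 FPKM. Pecam1 at P1 was listed at 0 FPKM in the same library, with the nearest other at 4.97 FPKM. That library holds 343000 effective reads and 31 reads of Cldn5. Flt1 at P30 was listed at 0 FPKM in Kdm6b-cKO library 2, with the nearest other at 0.528 FPKM. That library is 1 of 3 in its group with fewer than 3000000 effective reads.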

How the results depend on the processing

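In limma, 0 vascular genes were called at P1 and for the dependence on age under each alternative, and at P30 under each but library weights, where 1 (Vtn) was. A filter of 5 FPKM left no vascular gene at P30. With each library left out, the permutation test gave p under 0.05 for 0 to 2 genes at P1 (Pdgfrb without WT library 4, and Kdr and Pdgfrb without Kdm6b-cKO library 4) and for 0 to 1 gene at P30 (Vtn without WT library 0, Pecam1 without Kdm6b-cKO library 2).

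Differences that changed sign are given here, and the causes were not tested. At P1, library weights gave 0.10 for Cldn5, -0.23 for Flt1 and 0.15 for Vtn, libraries of over 500000 reads gave 0.13 for Cldn5, 0.13 for Pecam1 and 0.065 for Vtn, and libraries without olfactory receptor signal gave -0.10 for Tek. At P30, libraries with the lower 45S level (1 WT, 3 Kdm6b-cKO) gave -1.02 for Cldn5, 0.74 for Kdr, 0.75 for Tek and -1.16 for Vtn, and those with the higher level 0.19 for Pdgfrb. A pseudocount of 1 gave 0.011 for Kdr, a pseudocount of 0.01 gave 0.081 for Cdh5, and libraries of over 3000000 reads gave 0.044 for Kdr and 0.28 for Cdh5. With each library left out, the difference at P1 ran from -0.36 to 0.052 for Cldn5, from -0.11 to 0.35 for Flt1, from -1.15 to 0.11 for Pecam1 and from -0.11 to 0.35 for Tek. At P30 it ran from -0.37 to 0.071 for Kdr, from -0.24 to 0.27 for Cdh5 and from -0.24 to 0.063 for Tek.

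Counts over all genes at P30 moved from 30 lower and 7 higher to 329 and 201 with library weights, to 365 and 185 with the 45S split as a term, to 289 and 126 among libraries of over 3000000 reads, and to 0 and 0 with the replicate block. Leaving out each library at P30 gave 1 to 33 lower and 1 to 10 higher, with 1 and 1 without WT library 2, 3 or 5. Without WT library 4 they were 2 and 3, without Kdm6b-cKO library 0 6 and 2, without Kdm6b-cKO library 1 8 and 2, without WT library 1 16 and 6, and without Kdm6b-cKO library 5 15 and 6. At P1 they moved from 0 and 0 to 27 and 24 without Kdm6b-cKO library 4. Whether library numbers pair the samples is not given in the sources used here. With group means removed, same-numbered libraries correlated between -0.30 and 0.33, which cannot settle it because technical differences also enter. The replicate block left 0 vascular genes called at P1 and 0 at P30. Values under 1 FPKM, as of 6 vascular genes at P30, rest on few reads, which limits what could be detected there. Detection was limited at P1 too, where known changes were recovered less often than at P30. Without alternatives, the smallest adjusted p of limma over the 16250 genes at P1 was 0.16.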
